A study of Mus musculus with 24 samples.

Results

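The brain-alone promoter sites are 1566 peaks of the nuclear receptor Rev-erbα in mouse brain chromatin, out of 10687 peaks deposited for that tissue (14.7%, 95% Wilson interval 14.0 to 15.3%). They were chosen by 3 measured properties. The peak overlapped no peak of epididymal white adipose tissue (eWAT) by even 1 bp, its centre lay within 1 kb of the transcription start of a protein-coding gene, and no Rev-erbα ChIP-exo border of liver lay within 100 bp of that centre. Distance to a start, eWAT overlap and borders are therefore properties of the choice and are given below as description.

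The study mapped Rev-erbα, related receptors and a corepressor subunit in mouse tissues by chromatin immunoprecipitation and sequencing (ChIP-seq), in 24 samples of 16 groups. The 3 groups used here were all C57BL/6 mice with the genotype C57BL/6J Wild Type, taken at ZT10, which is 10 h after lights on, and carried no further allele or treatment per the labels. Brain, here the ventral tegmental area, was 1 ChIP-seq library and eWAT was 2; liver was 2 libraries of ChIP-exo, in which exonucleases trim the bound DNA up to the crosslinked protein and leave a border. All 3 groups used antibody against Rev-erbα, and each is held as 1 list, so nothing below has a spread over animals.

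Rev-erbα, encoded by Nr1d1, is a heme-binding nuclear receptor and a repressor within the circadian clock, in the arm that controls Bmal1 and Cry1. It is known to bind DNA alone at an AGGTCA site with an A/T-rich 5′ flank, or in pairs at a direct repeat of such sites, and to repress through NCoR and HDAC3. It is also known to reach chromatin through other DNA-bound factors, without a site of its own.

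The sequences of 5 of the highest-scoring brain-alone promoter sites are shown first, since they show how different the DNA under these peaks can be. Each is the whole 150-bp peak on the plus strand of mm9, and each touches no annotated exon. Capitals mark matches to any of the 19 motifs searched. The Hdac5 peak held a TATA box (TATAAA), the Map2k1 peak a D-box (TTANGTAA) and a REST motif (TTCAGNACC), and the other 3 held none of the 19.
Hdac5 (chr11:102080268-102080417, plus strand): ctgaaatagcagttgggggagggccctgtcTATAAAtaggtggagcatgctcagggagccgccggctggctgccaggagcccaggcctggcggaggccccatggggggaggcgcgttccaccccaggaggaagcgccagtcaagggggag
Cry1 (chr10:84647932-84648081, plus strand): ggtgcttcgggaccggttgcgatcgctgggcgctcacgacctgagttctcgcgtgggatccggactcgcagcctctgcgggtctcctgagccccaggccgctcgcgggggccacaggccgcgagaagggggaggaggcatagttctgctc
Smox (chr2:131334322-131334471, plus strand): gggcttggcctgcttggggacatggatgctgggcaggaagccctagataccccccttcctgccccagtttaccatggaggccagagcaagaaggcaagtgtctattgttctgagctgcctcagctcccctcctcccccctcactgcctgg
Map2k1 (chr9:64043486-64043635, plus strand): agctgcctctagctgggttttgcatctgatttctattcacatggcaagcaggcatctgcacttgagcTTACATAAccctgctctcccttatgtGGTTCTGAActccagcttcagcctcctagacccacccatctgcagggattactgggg
Dixdc1 (chr9:50536184-50536333, plus strand): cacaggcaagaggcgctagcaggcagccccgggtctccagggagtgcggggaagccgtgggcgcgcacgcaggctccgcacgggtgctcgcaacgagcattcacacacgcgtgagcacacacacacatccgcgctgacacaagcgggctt

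Windows of 30 bases around the nuclear receptor elements are shown next, on the strand of the match, because only 10 of the 1566 sites held one of the 2 complete elements searched. The first 4 hold the Rev-erb response element and the last holds the direct repeat with 2 bp spacing, in capitals.
Sdc3 (chr4:130367539-130367568, minus strand): tcggacacatAAATTAGGTCAgccgccggg
Oas2 (chr5:121184909-121184938, plus strand): ggggagaagAATCTAGGTCAtggaagaaat
Zmynd8 (chr2:165700326-165700355, minus strand): ggcggtctatTATTTGGGTCAaactagggg
Scfd2 (chr5:74622318-74622347, minus strand): gcctgcagggTATTTAGGTCAccctaaata
Wfikkn1 (chr17:26018396-26018425, minus strand): tgcctcctGGGTCAGGAGGTCAgacagagg

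The last windows show the elements that separated brain-alone promoter sites from other promoter sites, or that stood at the highest scores. Capitals mark the E-box (CACGTG), the D-box, the ETS site (CCGGAAG), the CCAAT box bound by NF-Y (CCAAT), the GC box of SP and KLF factors (GGGCGGG) and the CREB/ATF site (TGACGTCA). All motifs were searched on both strands; the E-box and the CREB/ATF site read the same on both.
Snrpa, E-box (chr7:27981346-27981375, plus strand): tgcgagttctatCACGTGggatgggaaagg
Zfp365, E-box (chr10:67375434-67375463, plus strand): gggaggcggggaCACGTGccagtcttgccc
Map2k1, D-box (chr9:64043542-64043571, minus strand): ggagagcagggTTATGTAAgctcaagtgca
Zfp597, ETS (chr16:3884603-3884632, minus strand): cggcggcgcagcCCGGAAGatcattggctg
P4hb, CCAAT box (chr11:120434565-120434594, minus strand): gcgcatctctccaCCAATcaggagccacga
Uqcrq, GC box (chr11:53244007-53244036, minus strand): tgagtgcggggcGGGCGGGgtacagccgcg
Tesk1, CREB/ATF (chr4:43455045-43455074, plus strand): ccgggatccagTGACGTCAcgcaaccctag

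Brain-alone promoter sites had the median score of the whole brain list but fewer high scores, and they scored below the other brain promoter classes. The deposited score, whose unit is not stated, rose in steps of 3.6361, and the sites ran from 4 to 32 steps (scores 14.5 to 116.4) with a median of 7 steps (25.5), which is also the median of all 10687 peaks. Of the 1566 sites, 888 (56.7%) had 7 steps or fewer, against 51.6% of the whole list, and 14 (0.894%) had 20 or more, against 3.61%. Brain promoter sites with a liver border and no eWAT overlap, 2330 in number, had a median score of 32.7, and the 151 brain promoter sites overlapping an eWAT peak had a median of 50.9. At 20 steps or more lay 4.98% of the liver-border sites and 29.1% of the sites shared with eWAT. One step is the smallest difference the score can show, and the lowest score in the list was 4 steps.

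**Figure D1:**
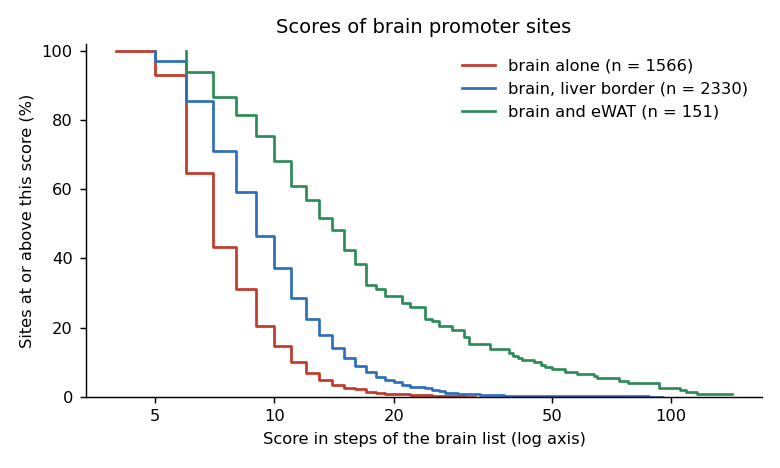
Share of brain promoter sites (vertical axis, percent) at or above each score, in steps of the brain list (horizontal log axis), for brain-alone sites (1566), sites with a liver border (2330) and sites shared with eWAT (151). The curve of the brain-alone sites falls first; 43.3% of them score above the median of the whole brain list, against 71.0% and 86.8% of the other classes.

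The 1566 sites made up 38.7% (37.2 to 40.2%) of the 4047 brain peaks at protein-coding promoters, where liver-border sites made up 57.6% and shared sites 3.73%. Among the 100 highest-scoring peaks of the brain list 1 was a brain-alone promoter site, 18 were liver-border sites and 23 were shared promoter sites. Among the highest 1000 the numbers were 58, 350 and 73.

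The highest-scoring site lay 100 bp upstream of Hdac5, a histone deacetylase of class IIa known from muscle and neurons, in an intron of the annotation (chr11:102080268-102080417, score 116.4, rank 93 of the brain list). Its nearest liver border was 120 bp away, just outside the 100-bp limit. Cry1, a core repressor of the clock, had the third site by score, 208 bp upstream of its start (chr10:84647932-84648081, score 101.8, rank 137). There the nearest liver border was 127 bp away and the nearest eWAT peak centre 4829 bp away. Sdc3, a heparan sulfate proteoglycan of the nervous system, carried a site 337 bp upstream of a start with a score of 94.5. Its nearest border was 1915 bp away and its peak holds the Rev-erb response element printed above.

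Far from any liver border were the sites of Smox, which encodes spermine oxidase (score 90.9, border 15810 bp away), and of Map2k1, which encodes the kinase MEK1 (score 87.3, 11861 bp). The site of E030019B06Rik, which scored 109.1, had its nearest border 9648 bp away, and that of Dixdc1, a DIX-domain protein of Wnt signalling, scored 80 with the border 4407 bp away. Close to a border were the sites of the ubiquitin ligase gene Trim65 (score 90.9, 112 bp), of Rnf130 (83.6, 141 bp), of the kinase gene Tesk1 (80, 101 bp), of P4hb, which encodes protein disulfide isomerase (76.4, 154 bp), and of Zfp597 (80, 285 bp). Of the 12 highest-scoring sites, then, 5 had no border within 1 kb and 7 had one 101 to 285 bp away.

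Brain-alone promoter sites clustered at the start, but less tightly than liver-border sites. The median distance to the nearest start was 172 bp, with 340 sites within 50 bp, 546 (34.9%) within 100 bp and 857 (54.7%) within 200 bp. The median was 87 bp for liver-border sites, 180 bp for shared sites and 382 bp for the 359 eWAT promoter sites with neither a brain peak nor a liver border. The centre lay between genes at 529 sites, in an intron at 535, in a coding exon at 98 and in a non-coding part of an exon at 404. Next to the 1-kb limit, the 5 sites just inside lay 993 to 1000 bp from a start and scored 21.8 to 32.7, and the 5 just outside lay 1004 to 1010 bp away and scored 21.8 to 36.4.

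**Figure D2:**
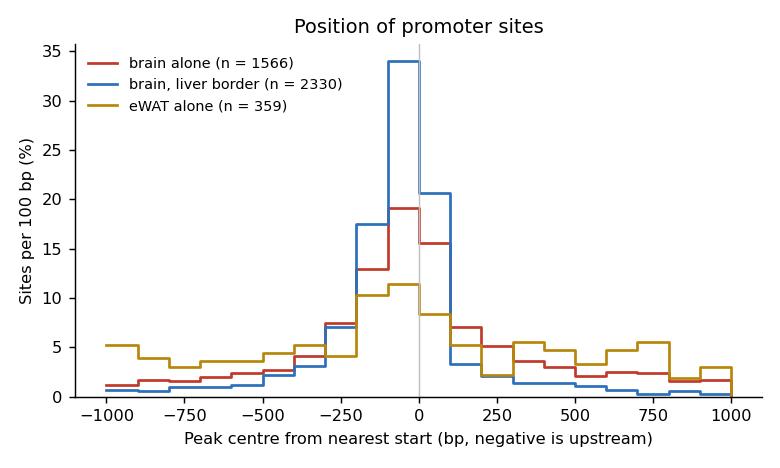
Share of sites per 100 bp (vertical axis, percent) by distance of the peak centre from the nearest protein-coding start (horizontal axis, bp, negative values upstream). The brain-alone sites peak at the start but more broadly than the liver-border sites, with medians of 172 and 87 bp, and the eWAT-alone sites spread widest, with a median of 382 bp.

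The rule set no side of the start. Of the brain-alone sites, 55.3% (52.8 to 57.7%) lay upstream of the nearest start. The share was 68.3% of liver-border sites (odds ratio 0.575, 95% interval 0.502 to 0.658, adjusted exact p = 6.89e-16), 67.5% of shared sites (0.594, 0.408 to 0.857, adjusted exact p = 0.00667) and 55.2% of eWAT-alone sites (1.006, 0.793 to 1.27, adjusted exact p = 1). These and the CpG and gene-pair values below are from Fisher's exact test, two-sided, with p adjusted over 9 tests. With only liver borders of p at most 0.01 counted, the first odds ratio was 0.820 (adjusted exact p = 0.056) and the second 0.799 (adjusted exact p = 0.257), and the third became 1.334 (adjusted exact p = 0.00431). The second also did not pass at 2 kb from a start (0.743, adjusted exact p = 0.0674), among sites scoring above their list's median (0.656, adjusted exact p = 0.0519) or at 7 to 9 score steps (0.707, adjusted exact p = 0.567).

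The absence of a liver border was often a near miss. The nearest border lay 101 to 150 bp from the centre at 278 sites and 101 to 200 bp at 432 (27.6%), and within 1 kb at 979 (62.5%, 60.1 to 64.9%). At 587 sites (37.5%) it lay over 1 kb away and at 169 (10.8%) over 10 kb. Over all 22350 protein-coding genes, a border lay within 1 kb of the most upstream start for 50.8% and within 100 bp for 29.5%. The 50.8% includes starts with a border within 100 bp, which the rule removed from the sites, so it is not a like share beside the 62.5%. Starts with and without a brain peak were not compared. The 5 sites just inside the border limit were all 101 bp away and scored 25.5 to 80, and the 5 just outside were all 100 bp away and scored 21.8 to 40. So 432 sites cleared the border limit by at most 100 bp, and the label of being found in brain alone rests there on that margin.

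Most liver-border sites had no border with a deposited p of at most 0.01 within 100 bp. Of the 2330, 539 (23.1%) had such a border, in a count of sites with a median of 2 borders each. Of all 245360 deposited borders, counted singly, 32.6% had such a p. The median of the highest border signal per site was 0.665 at these sites and 1.85 at the 129 shared promoter sites that had a border. With only borders of p at most 0.01 counted, 3357 sites would be brain-alone promoter sites.

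eWAT peaks were far from most of the sites. An eWAT peak centre lay within 1 kb of 48 sites (3.07%) and within 10 kb of 236 (15.1%), and the median distance was 55750 bp. Other brain sites without an eWAT overlap were as far away. Their median was 53198.5 bp at liver-border sites and 55643.5 bp at the brain-alone peaks over 1 kb from a start. The 5 sites nearest to an eWAT peak without overlapping it had centres 167 to 231 bp apart. Scores cannot be compared between the lists, because the step of the eWAT list was 1.0131 and the lowest eWAT peak had 10 steps, against 4 in brain.

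CpG-rich DNA divided the brain-alone promoter sites nearly evenly. A window of 250 bp on each side of the centre was called CpG-rich with a GC content of at least 55% and a CpG frequency of at least 0.65 of that expected from its bases. By this measure 805 of 1566 sites (51.4%, 48.9 to 53.9%) were CpG-rich, against 41.6% of the most upstream starts of all protein-coding genes and 2.73% of the 4940 brain-alone peaks over 1 kb from a start. The observed-to-expected CpG ratio ran from 0 to 1.29 with a median of 0.700. It was 0.993 at Cry1 and 0.893 at Dixdc1, but 0.211 at Hdac5, 0.139 at Map2k1 and 0.0808 at Smox.

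Liver-border sites were CpG-rich more often, at 74.5% (odds ratio of brain-alone against liver-border sites 0.362, 0.315 to 0.416, adjusted exact p = 7.87e-49). Sites shared with eWAT were CpG-rich at 52.3% (odds ratio 0.964, 0.680 to 1.37, adjusted exact p = 0.973), an interval that leaves room for a difference either way. eWAT-alone promoter sites were CpG-rich at 10.9% (odds ratio 8.67, 6.10 to 12.6, adjusted exact p = 3.66e-49). The differences from liver-border and eWAT-alone sites passed in all settings tried. The comparison with shared sites depended on settings: the odds ratio was 1.592 (adjusted exact p = 0.0086) with only borders of p at most 0.01, 2.50 (adjusted exact p = 0.0478) at 7 to 9 score steps, and 0.504 (adjusted exact p = 4.47e-04) for the 587 members without a border within 1 kb.

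**Figure D3:**
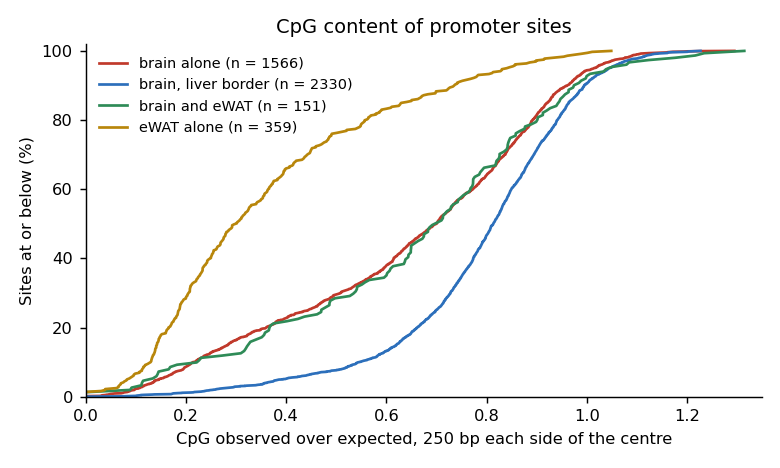
Cumulative share of sites (vertical axis, percent) by observed-to-expected CpG ratio within 250 bp of the centre (horizontal axis) for the 4 classes of promoter sites. Brain-alone and shared sites have medians of 0.700 and 0.701, liver-border sites 0.813 and eWAT-alone sites 0.302.

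Within the class, CpG content moved with the distance to the nearest liver border. CpG-rich were 66.9% (62.3 to 71.2%) of the 432 sites with a border at 101 to 200 bp, 56.1% of the 547 with one at up to 1 kb, and 35.6% (31.8 to 39.6%) of the 587 without one within 1 kb. It also moved with the distance to the start, with 64.6% of the 857 sites within 200 bp and 35.4% of the other 709. Scores moved with it too: 42.2% of sites with 4 to 6 steps, 54.3% with 7 to 9 and 61.1% with 10 or more were CpG-rich. These splits share their sites and carry no test.

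Starts of genes on opposite strands stood within 1 kb at 137 sites (8.75%, 7.45 to 10.3%), an arrangement typical of bidirectional promoters. The share was 13.8% of liver-border sites (odds ratio 0.598, 0.480 to 0.741, adjusted exact p = 2.43e-06), 4.64% of shared sites (1.97, 0.907 to 5.09, adjusted exact p = 0.116) and 3.90% of eWAT-alone sites (2.36, 1.34 to 4.49, adjusted exact p = 0.00265). The first difference did not pass with only borders of p at most 0.01 (0.861, adjusted exact p = 0.281). The third did not pass within 200 bp of a start (2.05, adjusted exact p = 0.0786) or without a border within 1 kb (1.005, adjusted exact p = 1), and the second passed in 4 of the settings given in the closing section.

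Motifs were counted within 50 bp of the peak centre and their shares compared with each other class by the same test, 57 comparisons in all, of which 10 passed at an adjusted p of 0.05. Toward liver-border sites, 6 motifs were less frequent at brain-alone sites and 0 more frequent; toward shared sites 2 were less frequent; toward eWAT-alone sites 1 was less and 1 more frequent. At 899 of the 1566 sites (57.4%) none of the 19 motifs was found. A match describes letters only and not a bound factor.

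The E-box, the site of CLOCK and BMAL1, the activators that Rev-erbα opposes, had the lowest adjusted p of the 19 motifs against both other brain classes. It stood at 60 brain-alone sites (3.83%, 2.99 to 4.90%), near its 3.33% in the same window at the most upstream starts of all protein-coding genes. It stood at 11.1% of liver-border sites (odds ratio 0.320, 0.236 to 0.429, adjusted exact p = 9.74e-16) and at 32.5% of shared sites (0.0832, 0.0530 to 0.131, adjusted exact p = 2.1e-24). At eWAT-alone sites it was 3.34% (1.15, 0.605 to 2.38, adjusted exact p = 0.865). Score moved with it: 2.54% of the brain-alone sites with 4 to 6 steps, 3.32% with 7 to 9 and 7.17% with 10 or more held an E-box. At 7 to 9 steps in the brain classes the shares were 3.32% of brain-alone, 8.59% of liver-border (adjusted exact p = 3.10e-04) and 21.4% of the 28 shared sites (adjusted exact p = 0.00719). With only borders of p at most 0.01 counted, the odds ratio toward liver-border sites was 0.849 (adjusted exact p = 0.569).

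The D-box, bound by the clock output factors DBP, TEF, HLF and NFIL3, stood at 10 brain-alone sites (0.639%, 0.347 to 1.17%), among them Map2k1, and at 4.64% of shared sites (odds ratio 0.133, 0.0448 to 0.417, adjusted exact p = 0.00206). That difference did not pass for members without a border within 1 kb (0.285, adjusted exact p = 0.101), nor at 7 to 9 score steps, where 4 of 693 brain-alone and 0 of 28 shared sites held a D-box (adjusted exact p = 1). C/EBP sites (TTGCNNAA), read by factors of fat and liver cells, stood at 1.92% of brain-alone and 7.52% of eWAT-alone sites (odds ratio 0.240, 0.136 to 0.426, adjusted exact p = 4.59e-06). Within CpG-rich windows, where only 39 eWAT-alone sites remained, that odds ratio was 0.187 (adjusted exact p = 0.367).

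Motifs common at promoters of widely expressed genes, and the C/EBP site, were less frequent at brain-alone than at liver-border sites. The GC box stood at 15.0% of brain-alone, 21.97% of liver-border (odds ratio 0.627, 0.527 to 0.745, adjusted exact p = 5.79e-07) and 1.67% of eWAT-alone sites (10.4, 4.64 to 28.8, adjusted exact p = 1.73e-14). The CCAAT box stood at 13.2% and, in liver-border sites, 17.9% (0.701, 0.582 to 0.842, adjusted exact p = 8.43e-04). ETS sites stood at 3.64% against 7.90% (0.441, 0.319 to 0.601, adjusted exact p = 4.28e-07). NRF1 sites (GCATGCGC) stood at 0.639% against 2.06% (0.306, 0.137 to 0.614, adjusted exact p = 0.00155), and C/EBP sites at 1.92% against 3.39% (0.557, 0.351 to 0.862, adjusted exact p = 0.041).

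None of these 5 differences from liver-border sites passed with only borders of p at most 0.01 counted (adjusted exact p 0.186 to 0.818). Within 200 bp of a start the GC box missed the threshold (adjusted exact p = 0.054), and the other 4 passed. In CpG-rich windows alone ETS and C/EBP sites passed, and the GC box (adjusted exact p = 0.367), the CCAAT box (0.367) and NRF1 (0.318) did not. Among the remaining settings, C/EBP sites missed the threshold in 6 (adjusted exact p 0.0509 to 1), the CCAAT box in 3 (0.101 to 0.741), NRF1 in 3 (0.0534 to 0.0947), the GC box in 1 (0.0529, at 7 to 9 score steps) and ETS in 0. At starts of all protein-coding genes the same window held a GC box in 17.7%, a CCAAT box in 13.8%, an ETS site in 6.47% and an NRF1 site in 1.74%. The values at brain-alone sites were lower than these for all 4 motifs, most so for ETS and NRF1, with no test. The gene windows were centred on the start, however, while the sites lay a median of 172 bp from one. At the 857 sites within 200 bp of a start, the GC box stood at 18.7% and the CCAAT box at 14.0%, not lower than at gene starts. ETS stood there at 5.83% and NRF1 at 0.583%.

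**Figure D4:**
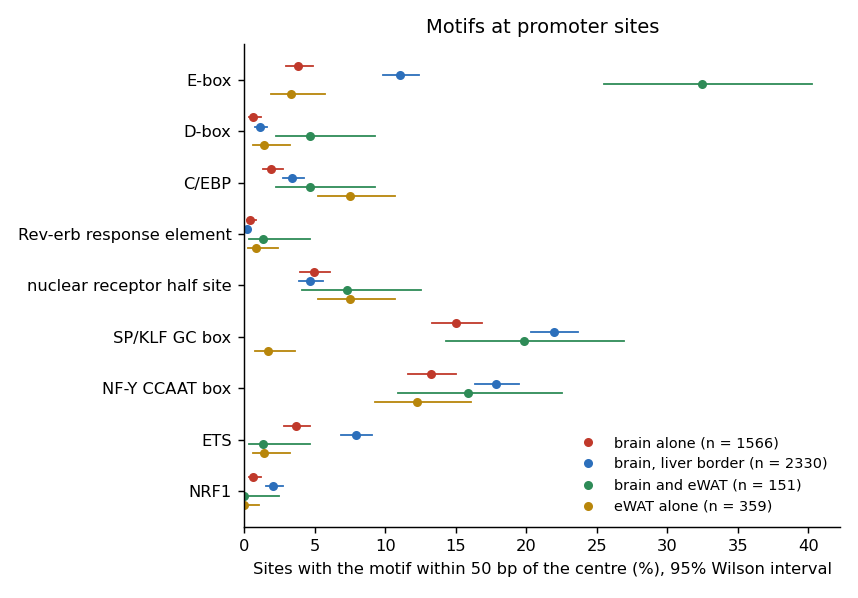
Share of sites with each of 9 motifs within 50 bp of the centre (horizontal axis, percent; points with 95% Wilson intervals) in the 4 classes of promoter sites. The E-box stands apart most, at 3.83% of brain-alone, 11.1% of liver-border and 32.5% of shared sites, while the Rev-erb response element is under 2% in every class.

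Rev-erbα's own elements were rare at the brain-alone promoter sites. The Rev-erb response element stood at 6 of 1566 sites (0.383%, 0.176 to 0.833%), against 0.172% of liver-border, 1.32% of shared and 0.836% of eWAT-alone sites; none of the 3 comparisons passed (adjusted exact p 0.370 to 0.549). The element was less frequent than at eWAT-alone sites with only borders of p at most 0.01 (odds ratio 0.211, adjusted exact p = 0.0289) and than at shared sites at 2 kb from a start (0.153, adjusted exact p = 0.0441). The same element stood at 89 of the 4940 brain-alone peaks over 1 kb from a start (1.80%, 1.47 to 2.21%), at 0.0761% of all gene starts and in 0.192% of the windows 1000 bp to either side of the brain-alone promoter sites. The direct repeat with 2 bp spacing stood at 4 sites (0.255%, 0.0994 to 0.655%), and at none of the 2330 liver-border sites (adjusted exact p = 0.122). It stood at 0.142% of the brain-alone peaks over 1 kb from a start. At all gene starts its share was 0.00447%, and in the windows 1000 bp to either side it was 0%. So the direct repeat was rare but above both of these backgrounds, on 4 sites and with no test against them. The single AGGTCA site, which also lies inside many matches to the longer elements, stood at 77 sites (4.92%), near the 4.23% of all gene starts and the 4.64% of liver-border sites (odds ratio 1.06, 0.778 to 1.45, adjusted exact p = 0.816). It stood at 7.28% of shared sites (0.658, 0.338 to 1.41, adjusted exact p = 0.394) and 7.52% of eWAT-alone sites (0.636, 0.398 to 1.04, adjusted exact p = 0.188). The difference from eWAT-alone sites passed in 4 settings: with only borders of p at most 0.01 (0.479, adjusted exact p = 2.50e-04), at 2 kb from a start (0.596, 0.0199), in the 150-bp peak (0.559, 0.0138) and within 100 bp of the centre (0.576, 0.00708).

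The 6 sites with the response element all lay outside CpG-rich windows; of 805 CpG-rich sites 0 held it, which allows a share of up to 0.373%. Among the sites named for an element, Sdc3 scored 94.5 and Oas2, an interferon-induced enzyme of double-stranded RNA sensing, scored 65.4 (632 bp downstream of a start, in an intron, border 35947 bp away). Zmynd8, a chromatin reader, scored 36.4 with a site 918 bp downstream of a start. Scfd2 scored 32.7 with a site 836 bp upstream and a border 12201 bp away. Wfikkn1, an inhibitor of growth factors of the myostatin group, scored 36.4 and held the direct repeat 592 bp upstream of a start. Asxl3, a Polycomb-associated gene, scored 40 and also held the direct repeat. In each of the 5 elements printed the middle of the match lay 13 to 37 bp from the peak centre.

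The 1566 sites lay within 1 kb of a start of 1610 protein-coding genes, which is 7.2% of 22350. Any brain peak lay that near for 18.3% of genes and any eWAT peak for 3.59%. One site was found at 1511 of the genes, 2 at 96, and 3 or more at 3, which were Cuedc1, Rapgef3 and Tcf4. Another brain promoter peak, of the liver-border or shared class, lay at 210 of the 1610 genes (13.0%), so a gene with a brain-alone site is not always a gene bound in brain alone. An eWAT peak lay within 10 kb of a start for 360 of them (22.4%), against 14.2% of all genes.

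Genes of neurons and synapses had brain-alone sites and no other kind of brain promoter site. Of 37 genes on that list 8 had one (21.6%, 11.4 to 37.2%, beside 7.2% of all genes), and these 8 were all the genes of the list with any brain promoter peak. For brain promoter peaks of any kind the list was thus near all genes, at 21.6% beside 18.3%. An eWAT promoter peak lay at 2 of the 37 (5.41%, beside 3.59% of all genes). Camk2b, a calcium-dependent kinase of synapses, scored 50.9 and its site lay 110 bp upstream of a start. The ubiquitin hydrolase gene Uchl1 scored 36.4 at 13 bp, Snap25, a SNARE protein of vesicle release, scored 32.7 at 30 bp, and the NMDA receptor subunit gene Grin2b scored 32.7 at 13 bp, all downstream of a start. The cell adhesion gene Ncam1 (32.7), the AMPA receptor subunit gene Gria1 (25.5), the tau gene Mapt (25.5) and the vesicular GABA transporter gene Slc32a1 (21.8) completed the list.

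The neuronal sites were far from liver borders. Uchl1 and Grin2b had a second site each, and at all 10 sites the nearest border was over 1 kb away, from 1997 to 21769 bp with a median of 8541 bp, beside a median of 478 bp over the 1566. CpG-rich were 3 of the 10. The Camk2b site was close to fat signal, with an eWAT peak centre 200 bp away that did not overlap it.

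Lists of other cell types of the dissected tissue were short, and each interval included the 7.2% of all genes. Astrocyte genes had 2 of 10 (20%, 5.67 to 50.98%), which were Aldoc (43.6) and the glutamate transporter gene Slc1a2 (36.4). Oligodendrocyte genes had 1 of 12 (8.33%; Olig1, 36.4) and vessel genes 1 of 10 (10%; Tie1, 36.4). Of the 20 genes of dopamine neurons, the cell type the ventral tegmental area is known for, 0 had a site, which allows a share of up to 15%, and of 11 microglial genes 0 had one (up to 27.3%). A marker gene near a peak does not show which cells held the receptor, and cell types within the tissue cannot be told apart in these lists.

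Core clock genes had mostly other kinds of promoter site. Of 23, 21 had a brain promoter peak and 16 an eWAT one; 13 had a site shared between brain and eWAT, and 4 had a brain-alone site (17.4%, 6.98 to 37.1%). These were Cry1 (101.8), the bZIP repressor gene Nfil3 (54.5), the activating receptor gene Rora (32.7 and 18.2 at separate starts) and the casein kinase gene Csnk1e (25.5). All 5 sites were CpG-rich, had a liver border 114 to 761 bp away, and held no E-box, D-box or response element within 50 bp of the centre. Of 6 genes of the NCoR and HDAC3 complex 0 had a brain-alone site (up to 50%), and of 13 genes of the metabolism of heme, the ligand of Rev-erbα, 0 had one (up to 23.1%).

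Histone methylation enzymes were the other list whose interval lay above 7.2%, together with the chaperones. Of 43 genes 9 had a brain-alone site (20.9%, 11.4 to 35.2%), where 16 had any brain promoter peak. The highest were Kdm2b (40), a demethylase that recruits Polycomb to CpG islands, Ezh1 (32.7), a Polycomb methyltransferase, Kdm1b (32.7), a demethylase, and Mll3 (32.7), a methyltransferase of enhancers with a second site at 25.5. CpG-rich were 8 of the 10 sites. Of 38 genes of the unfolded protein response and chaperones 6 had a site (15.8%, 7.44 to 30.4%), where 23 (60.5%, beside 18.3% of all genes) had any brain promoter peak and 18 a liver-border one. Among the 6 were the heat shock protein gene Hspa8 (47.3), Sel1l of the degradation machinery of the endoplasmic reticulum (43.6) and the chaperonin genes Cct3 (36.4) and Cct7 (32.7). These lists were chosen with earlier results known, and 25 were counted, so an interval above the background is a description of 3 among 25.

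**Figure D5:**
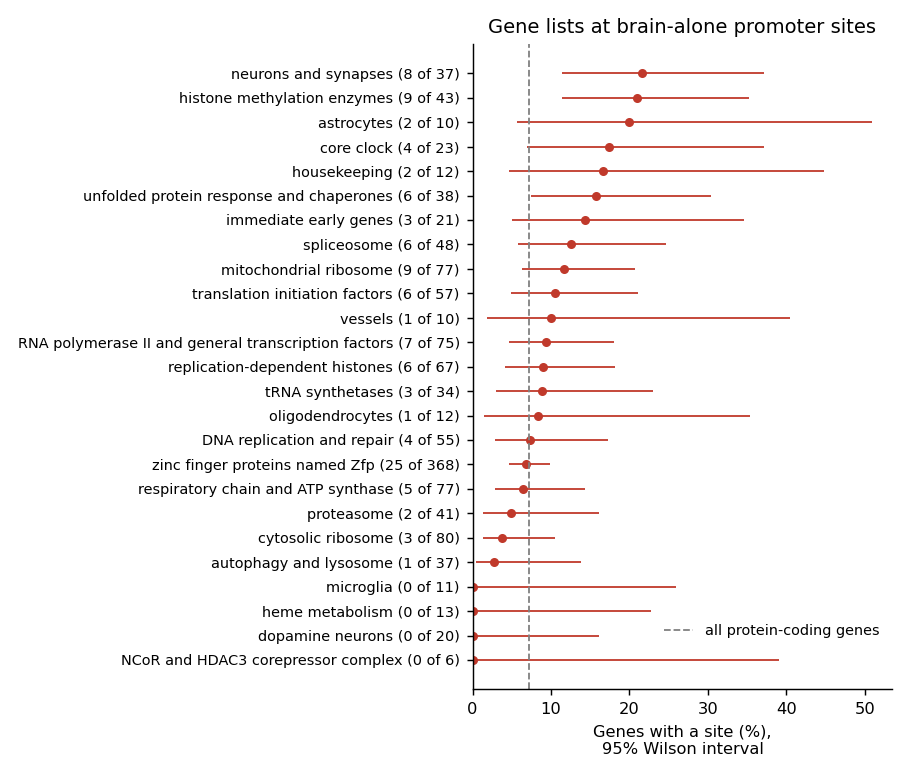
Share of the genes of each of 25 lists with a brain-alone promoter site (horizontal axis, percent; points with 95% Wilson intervals; counts beside each name), with 7.2% of all protein-coding genes as a dashed line. Neurons and synapses (21.6%) and histone methylation enzymes (20.9%) stand highest, the intervals of all other lists but the chaperones (15.8%) include the dashed line, and 4 lists are at 0.

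Respiratory chain, cytosolic ribosome and proteasome genes with a brain promoter peak more often had a liver-border site than all genes with such a peak. This excess was not particular to these lists. With a brain promoter peak, 13 of 16 tRNA synthetase genes and 18 of 23 RNA polymerase II genes had a liver-border site. For chaperone genes it was 18 of 23, and for spliceosome genes 15 of 21. Among the lists on the other side were core clock genes (10 of 21) and neuronal genes (0 of 8). These differences were not tested. Over all genes, 62.5% of the 4092 with a brain promoter peak had a liver-border site and 39.3% a brain-alone one. Of 77 respiratory chain and ATP synthase genes 23 had a brain promoter peak, 18 of them a liver-border one, and 5 a brain-alone one (6.49%, 2.81 to 14.3%). The highest of the 5 were Atp5o (50.9), Ndufs7 (47.3), Ndufs8 (36.4) and Uqcrq (32.7), and each of the 5 had a liver border 106 to 149 bp away, so they missed the border class by under 50 bp. Cytosolic ribosome genes had 3 of 80 (Rpl30 40, Rpl15 36.4, Rps4x 21.8), where 24 had a brain promoter peak and 21 a liver-border one. The proteasome had 2 of 41 (Psma6 and Psma7, both 25.5), where 10 had a brain promoter peak and 8 a liver-border one. Mitochondrial ribosome genes did not share this excess of liver-border sites. Of 77, 22 had a brain promoter peak, 12 a liver-border one and 9 a brain-alone one (11.7%, 6.27 to 20.7%). The highest of the 9 were Mrps2 (40), Mrpl55 (36.4), Mrpl41 (36.4) and Mrps33 (32.7).

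Spliceosome genes had 6 of 48, with Srsf4 and Snrpa both at 36.4 and Snrpd3 at 32.7. Translation initiation genes had 6 of 57, led by Eif5b (40) and the kinase gene Eif2ak4 (29.1), and tRNA synthetases 3 of 34 (Wars 29.1, Yars 29.1, Iars2 21.8). RNA polymerase II and its general factors had 7 of 75, among them Taf8 (29.1), Polr2a (25.5) and Med12l (25.5). The intervals of all these shares include 7.2%, as does that of the genes named Zfp, with 25 of 368 (6.79%, 4.64 to 9.84%) led by Zfp597 (80), Zfp503 (50.9), Zfp428 (47.3) and Zfp365 (40).

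Replication-dependent histone genes had 6 of 67, at 5 sites that score 21.8 to 29.1, with Hist1h2an and Hist1h2bp on 1 site. DNA replication and repair genes had 4 of 55 (Brca1 25.5, Brca2 21.8, Orc5 21.8, Mcm5 18.2). Immediate early genes, which neuronal activity induces, had 3 of 21 (14.3%, 4.98 to 34.6%): Fosb (43.6), Klf4 (29.1) and Egr4 (21.8). Autophagy and lysosome genes had 1 of 37 (Atg13, 21.8), and housekeeping controls 2 of 12 (Tfrc 43.6 and Gapdh 29.1). The interval of each share in this paragraph includes the 7.2% of all genes.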

How the data were processed

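ChIP-seq peak lists of brain (1 library) and eWAT (2 libraries) and a ChIP-exo border list of liver (2 libraries) were used. The submitters' processing notes name mm9, Bowtie 0.12.8 (ChIP-seq), Bowtie 1.1.1 (ChIP-exo) and HOMER with no version; for the callers, thresholds, pooling and inputs, nothing is stated in the material used. Each deposited peak is 150 bp wide with a score of the authors whose unit is not stated. Per the file headers, each border has a p-value (0.00503 to 0.0500) and a signal of unstated scale (0.0602 to 343.3). Depth is unknown, and the number of values not assigned to a group is 0. All peaks and borders fall within the mm9 chromosomes; 70018 starts of 22350 protein-coding genes on chromosomes 1 to 19 and X came from GENCODE vM1.

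Sites were classed by their centres and lists overlapped by at least 1 bp. Motif, CpG and gene-pair shares were compared by Fisher's exact test, two-sided, adjusted by the Benjamini-Hochberg method (57 and 9 tests, threshold 0.05), with exact intervals of conditional odds ratios and 95% Wilson intervals of shares (scipy 1.17.1, pysam 0.24.0, Python 3.11.15). The search for motifs given as plain letters and the tests were checked on simulated data. The patterns of the Rev-erb response element, the direct repeat and the CTCF motif were not part of that check. The first 2 also accept GGGTCA in place of AGGTCA, as the matches printed for Zmynd8 and Wfikkn1 show. Tests are over sites, which are not replicates and not independent of their neighbours. Intervals cover counting error only. The share that a count of 0 allows was taken as 3 divided by the number counted, and is not a Wilson limit. For the 6 genes of the NCoR and HDAC3 complex the Wilson limit was 39.0%.

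The sites and gene lists were chosen with earlier results of these data known. Named were the 12 highest-scoring sites, up to 4 genes of each list by score, the 6 highest-scoring sites with an element of Rev-erbα, and the 5 sites next to each limit by range; sites with over 10 brain peaks within 100 kb (8 of 1566) were counted but not named as such. The remaining genes with several sites, and the lower-scoring genes of the neuronal list, were named after their values were seen. All list symbols matched, 6 by an older symbol. The result of 1 gene is not reported here. The 13 other groups were not analysed here.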

Additional observations from a re-analysis of the deposited data

How the results depend on the processing

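The number of brain-alone promoter sites was 1566 and stayed within 1.5 times of that in 7 of 9 settings; it was 3357 with only borders of p at most 0.01 and 678 with only scores above the list median, where 728 genes rather than 1610 had a site. The count of motif differences, 10, became 18 in the 150-bp peak, 18 within 100 bp of the centre, 6 in CpG-rich windows and 6 at 7 to 9 score steps. Of 280 motif odds ratios under an alternative, 25 lost the threshold and 12 passed it. On the other side of 1 were 16, and 0 of these passed the threshold in either setting. A further 5 had 0 sites in the class compared, or in both, and gave no odds ratio, among them the D-box against shared sites at 7 to 9 steps. The borders of p at most 0.01 ended all 6 motif differences from liver-border sites.

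For CpG-rich DNA against shared sites the odds ratio of 0.964 became 1.592 with borders of p at most 0.01, 2.501 at 7 to 9 steps and 0.5044 without a border within 1 kb. For gene pairs against shared sites it passed at 2.764 (overlap of 75 bp), 2.257 (borders within 50 bp), 2.688 (borders of p at most 0.01) and 3.249 (scores above the median). Gene pairs missed the threshold against liver-border sites at 0.8614 (borders of p at most 0.01), and against eWAT-alone sites at 2.053 (within 200 bp of a start) and 1.005 (no border within 1 kb). For upstream sites the odds ratio fell short of the threshold against liver-border sites at 0.8196 and against shared sites at 0.7985 (both with borders of p at most 0.01), 0.7429 (2 kb), 0.6558 (scores above the median) and 0.7071 (7 to 9 steps), and passed against eWAT-alone sites at 1.334 (borders of p at most 0.01). Fewer sites were tested at 7 to 9 steps, within 200 bp, in CpG-rich windows and among scores above the median. Fewer members were tested without a border within 1 kb. The cause of a lost or gained call was not tested in any setting. The restrictions to 200 bp of a start, CpG-rich windows, 7 to 9 steps and no border within 1 kb were chosen after seeing the data. No paired analysis was possible because each group is held as 1 list. Depth is unknown, and low scores limit what can be said of single sites.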

Other observations

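Brain-alone promoter sites were spread over chromosomes 1 to 19 and X, with values from 28 sites on X to 136 on 11. On X lay 1.79% of the sites and 4.17% of protein-coding genes, on chromosome 7 lay 6.51% and 9.27%, and on chromosome 5 lay 8.62% and 5.86%. The brain list held 54 promoter peaks on X in all, so 28 of them were brain-alone. These shares carry no test.

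Among motifs outside the calls, the RFX X-box (GTTNCCATG), bound by factors of ciliary and neuronal genes, stood at 13 brain-alone sites (0.830%), including Camk2b, and at 0.472% of liver-border sites (adjusted exact p = 0.394). Within 200 bp of a start, a restriction chosen after seeing the data, it stood at 1.40% and 0.284% (adjusted exact p = 0.0138). TATA boxes stood at 25 sites (1.60%), at 1.03% of liver-border sites (adjusted exact p = 0.370) and 1.95% of eWAT-alone sites (adjusted exact p = 0.802). They stood at 5.16% of the windows at the most upstream starts of all genes and 5.46% of the windows 1000 bp away from the brain-alone sites.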
